A study of Mus musculus with 10 samples.

Results

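Interferon-stimulated genes are the genes that cells switch on when interferon binds its receptors. A list of 41 such genes was followed in the gastrocnemius, a calf muscle, of fasted mice that lacked Skn-1 and of fasted wild-type mice. The members were chosen by name in the platform annotation, and every probe set assigned to 1 gene was read. Of the 41 genes, 37 had such a probe set, with 58 probe sets in all of the 45037 tested. Gbp4, Isg15 and Tgtp1 were found only on probe sets shared with other genes, and Ifi44 on no probe set named here, so no value is given for these 4. The members were split by textbook knowledge into 25 genes typical of type I interferon and 16 typical of interferon-gamma, and many of them respond to both.

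Expression was measured on Affymetrix mouse 3′ expression arrays, 1 per mouse, with 5 Skn-1-deficient and 5 wild-type males. Skn-1, listed in gene tables as Pou2f3, encodes a POU transcription factor needed by taste and tuft cells. Both groups were 12 to 16 weeks old, ate chow, had fasted for 18 h before dissection, and are labelled as mixed 129 x C57BL/6J. Per the labels the mutant line had since passed through over 10 backcross generations to C57BL/6J, and which part of the gene is missing is not stated in the labels. In what follows, knockout 1 to 5 and wild type 1 to 5 are the arrays by their replicate numbers. In bulk muscle, fewer cells of a type and less RNA per cell cannot be told apart.

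Type I interferons (the alpha and beta family) signal through a complex that holds Stat2 and Irf9 and binds the interferon-stimulated response element, ISRE. Interferon-gamma, made by T cells and natural killer cells, acts on genes that carry the gamma-activated site, GAS, and induces Irf1 in turn. The type I programme is known for antiviral proteins such as the Ifit, Oas and Mx families. The interferon-gamma programme is known for the large GTPases that attack vacuoles holding microbes, for peptide transport to MHC class I, and for chemokines that attract T cells. Muscle fibres carry receptors for both and can answer either.

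The promoters of members from both classes are shown because they hold the letters of these 2 elements. The windows are RefSeq sequences of the GRCm38.p6 build, 300 bases long, from 250 before to 50 after a gene's annotated start, written 5′ to 3′ along the gene, which lies on the plus strand in each case. Capitals mark a match on either strand to the ISRE core, GAAA and again GAAA after any 2 bases, or to the GAS core TTCNNNGAA; overlapping matches were each counted. Igtp at chr11:58199306-58199605 and Irgm2 at chr11:58214727-58215026 code for immunity-related GTPases, Gbp7 at chr3:142530086-142530385 for a guanylate-binding protein, and Irf1 at chr11:53769764-53770063 for a transcription factor, all of the interferon-gamma type. Ifit1 at chr19:34640639-34640938 and Ifit3 at chr19:34583279-34583578 are type I members that code for RNA-binding antiviral proteins.
Igtp: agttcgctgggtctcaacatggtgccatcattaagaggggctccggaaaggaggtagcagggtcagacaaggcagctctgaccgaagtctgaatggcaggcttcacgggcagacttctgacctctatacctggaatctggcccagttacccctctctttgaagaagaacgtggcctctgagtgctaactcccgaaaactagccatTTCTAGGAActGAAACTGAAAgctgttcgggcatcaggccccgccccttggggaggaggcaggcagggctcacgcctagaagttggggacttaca
Irgm2: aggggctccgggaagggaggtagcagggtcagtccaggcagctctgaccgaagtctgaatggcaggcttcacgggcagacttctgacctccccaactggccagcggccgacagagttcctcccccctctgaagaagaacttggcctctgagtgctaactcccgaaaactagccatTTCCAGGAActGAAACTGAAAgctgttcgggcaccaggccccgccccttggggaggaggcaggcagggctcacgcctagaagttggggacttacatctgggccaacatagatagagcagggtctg
Gbp7: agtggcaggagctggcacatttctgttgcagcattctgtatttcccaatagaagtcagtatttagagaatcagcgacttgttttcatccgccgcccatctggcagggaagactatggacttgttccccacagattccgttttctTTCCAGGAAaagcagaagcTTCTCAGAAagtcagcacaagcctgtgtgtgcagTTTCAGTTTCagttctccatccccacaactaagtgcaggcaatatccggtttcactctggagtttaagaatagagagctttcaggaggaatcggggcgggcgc
Irf1: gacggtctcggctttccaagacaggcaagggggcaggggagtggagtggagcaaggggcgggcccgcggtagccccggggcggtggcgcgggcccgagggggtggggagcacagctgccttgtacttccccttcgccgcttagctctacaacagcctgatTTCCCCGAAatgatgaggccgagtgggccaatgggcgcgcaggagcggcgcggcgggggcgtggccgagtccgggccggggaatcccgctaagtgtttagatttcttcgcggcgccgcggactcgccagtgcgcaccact
Ifit1: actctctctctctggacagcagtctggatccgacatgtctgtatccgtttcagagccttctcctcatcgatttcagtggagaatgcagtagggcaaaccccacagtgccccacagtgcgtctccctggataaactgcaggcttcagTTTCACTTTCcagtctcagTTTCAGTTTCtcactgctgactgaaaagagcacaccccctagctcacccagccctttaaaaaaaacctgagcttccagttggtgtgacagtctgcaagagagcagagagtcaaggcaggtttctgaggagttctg
Ifit3: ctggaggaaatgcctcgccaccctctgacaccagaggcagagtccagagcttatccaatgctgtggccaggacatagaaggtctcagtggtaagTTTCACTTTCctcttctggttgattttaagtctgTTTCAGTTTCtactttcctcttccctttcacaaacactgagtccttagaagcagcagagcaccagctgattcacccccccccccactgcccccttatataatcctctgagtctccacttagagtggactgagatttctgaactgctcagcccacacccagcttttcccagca

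In the Igtp and Irgm2 windows a GAS core was followed, after 2 bases, by an ISRE core. The GAS core began 45 bases before the start of Igtp and 75 before that of Irgm2, and the 2 windows share a run of 61 identical bases. Gbp7 had 2 GAS cores and 1 ISRE core, Irf1 a GAS core and no ISRE core, and Ifit1 and Ifit3 had 2 ISRE cores each and no GAS core. Of all 32851 windows, 3.44% held an ISRE core, 8.30% a GAS core and 0.454% both. Of the 31 members with a window, 19 held an ISRE core and 10 a GAS core in at least 1 of their windows, where 3.99% and 9.55% of all 27025 genes did. A GAS core was found in 6 of 12 interferon-gamma type members and in 4 of 19 type I members, and both elements in 4 of 12 and 2 of 19, where 0.614% of all genes held both. By class, an ISRE core was found in 8 of 12 interferon-gamma type members and in 11 of 19 type I members. A match describes the letters only.

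Before any comparison, 2 arrays stood apart. Knockout 5 and wild type 3 carried transcripts of B and T lymphocytes. Over 11 B and T cell markers whose values varied, of 22 listed, the mean level was 7.38 in knockout 5 and between 5.96 and 6.01 in the other knockouts, against 7.44 in wild type 3 and between 5.90 and 5.99 in the other wild types. All 11 markers were highest in knockout 5 among knockouts and in wild type 3 among wild types. Skin and hair genes were also unequal among arrays, with a mean over 13 markers of 7.08 and 7.36 in knockouts 1 and 4 and between 6.01 and 6.12 in the other 3, against 7.39 and 7.17 in wild types 1 and 3 and between 6.03 and 6.07 in the other 3. The probe set of Pou2f3 itself read 6.47 in all 5 knockouts and 6.47 in all 5 wild types, with an SD of 0.000257 over the arrays, and so checks no label. The labelled muscle was plain in every array: the 13 fibre markers, from Acta1 to Myh1, lay at or above the 99.87 percentile of all probe sets, and the 7 that varied averaged between 13.25 and 13.33 in knockouts and between 13.25 and 13.33 in wild types.

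The deposited values have an unusual spread that limits what can be read. Of all probe sets, 86.2% had an SD at or under 0.01 over the 10 arrays, on a scale taken as log2, and are called hardly varying here. Their median SD was 0.000189, and no size of change is read from them. Of the members, 22 genes had at least 1 varying probe set, 9 of 23 measured type I genes and 13 of 14 of the interferon-gamma type. The values below come from the brightest varying probe set of each gene. Of the members nearest to the limit, Ifit3 lay above it with an SD of 0.103 and Ifit2 under it with an SD of 0.00621.

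Most of the classical type I effectors gave flat readings. The 14 type I genes with hardly varying probe sets only were Ifit1 and Ifit2; Oas1a, Oas2, Oas3, Oasl1 and Oasl2, of the enzyme family that makes an activator of RNase L, or related to it; the antiviral GTPases Mx1 and Mx2; the factors Irf7 and Stat2; and the RNA sensors Ifih1, Ddx58 and Dhx58. Ifit1 stood at 6.55 in both genotypes, Oas1a at 6.81, Irf7 at 6.57 and Ifih1 at 7.13. Of the interferon-gamma type, Cxcl10, a T cell chemokine, was alone in this class, at 6.06 in both genotypes. Even on this narrow scale knockout 5 was the highest array in 14 of 28 hardly varying member probe sets, where it was the highest in 6.30% of all 38828 such probe sets.

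No member passed the test between genotypes. At an adjusted p under 0.05 by limma, 0 of the 58 member probe sets were called, where 0.191% of all 45037 were. At an unadjusted p under 0.05 there was 1, in Xaf1, where 6.62% of all probe sets reached it. In none of the 58 were the genotypes free of overlap, where 1.6% of all were. Of the 22 genes, 20 were higher in knockouts, 9 of 9 type I and 11 of 13 of the interferon-gamma type, while 49.2% of all varying probe sets were. The median difference, knockout minus wild type, was 0.09 for type I members and 0.19 for the interferon-gamma type, against −0.0021 for all varying probe sets.

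These directions depended on which arrays were included. Without knockout 5, 11 of the 22 genes were higher in knockouts, 4 of 9 type I and 7 of 13 of the interferon-gamma type. The median difference was then −0.0064 for type I members and 0.0046 for the interferon-gamma type, against −0.0138 for all varying probe sets. No member passed the limma threshold without it either, where 0.0888% of all probe sets did. At an unadjusted p under 0.05 there were 3 member probe sets, of Xaf1, Gbp6 and the hardly varying Ddx58, where 6.77% of all reached it. Leaving out both knockout 5 and wild type 3 was a choice made after seeing the data. Then 8 of 9 type I and 8 of 13 interferon-gamma type genes were higher in knockouts, with medians of 0.04 and 0.05. The direction over all varying probe sets is not given for this choice. Again 0 members passed, where 16 of all 45037 probe sets did.

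**Figure D1:**
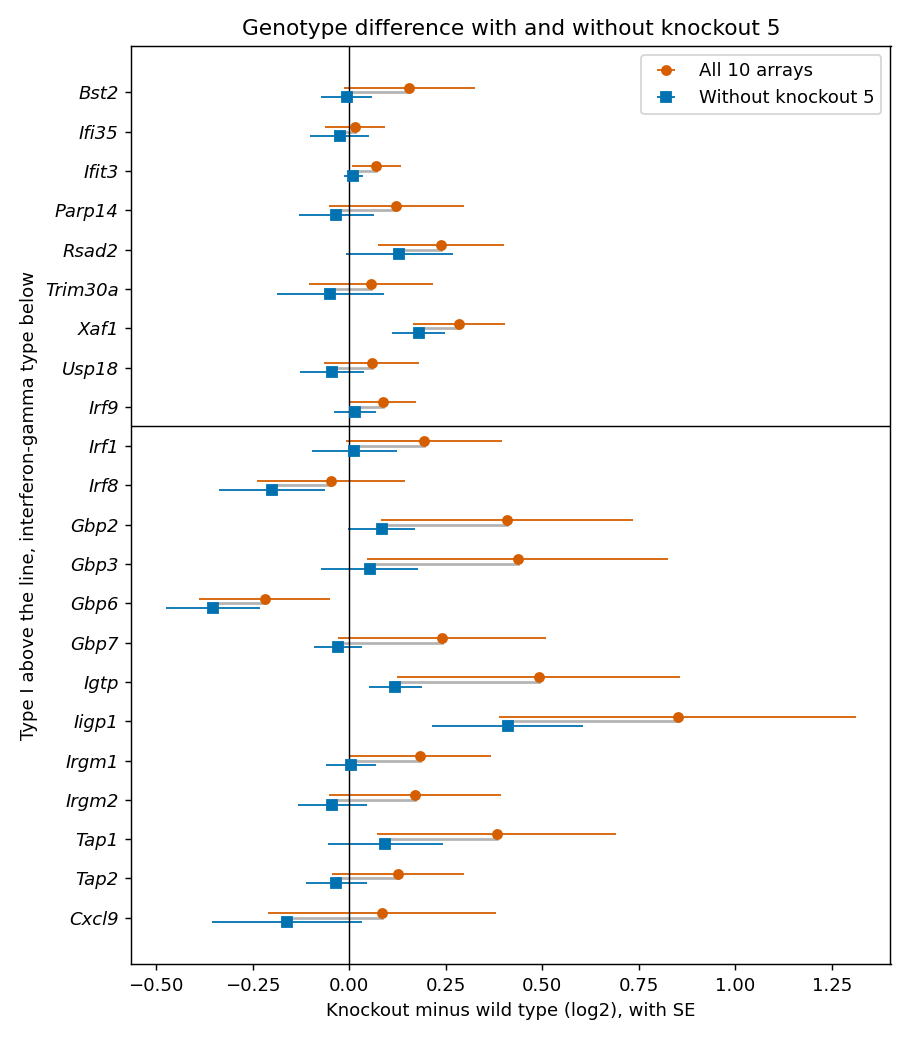
Difference between knockout and wild type (x axis, log2, with limma SE) for each of 22 interferon-stimulated genes (rows; 9 type I above the line, 13 interferon-gamma type below). Circles use all 10 arrays and squares leave out knockout 5; with it 20 genes lie right of 0, and without it 11 do.

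Knockout 5 held the highest of the 10 values in all 22 genes, and in 27 of the 30 varying member probe sets. Over all 6209 varying probe sets it was the highest array in 11.1%. Its excess over the mean of the other 4 knockouts had a median of 1.23 (2.35-fold) among interferon-gamma type members and of 0.53 (1.44-fold) among type I members. The excess of single genes ran between 0.67 and 2.20 in the first class and between 0.20 and 0.81 in the second. This is 1 mouse, so the excess has no replicate and no test.

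**Figure D2:**
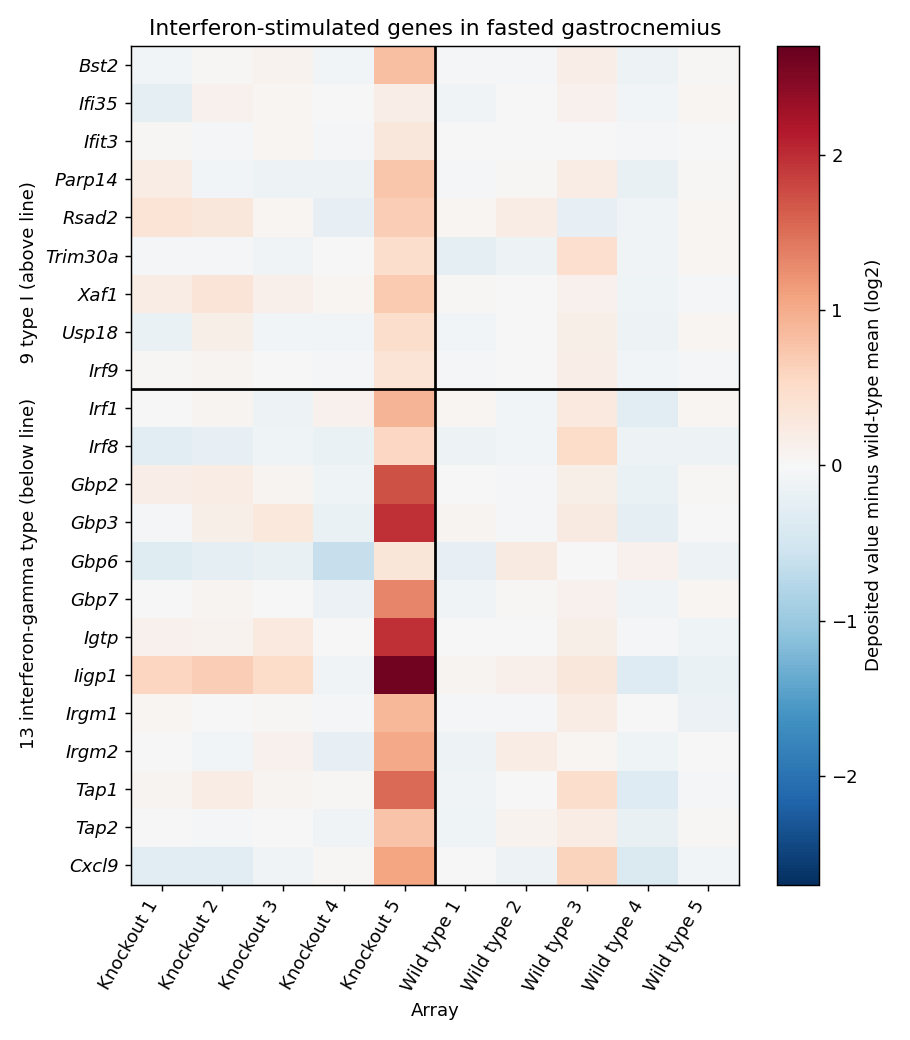
Deposited value minus the wild-type mean (colour, log2) for 22 interferon-stimulated genes (rows) in 10 arrays (columns, knockouts left, wild types right). Knockout 5 holds the highest value in every row, with the deepest colour in Iigp1, Gbp3, Igtp and Gbp2.

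The immunity-related GTPases act on the membranes around engulfed microbes, and 1 of them, Iigp1, had the largest excess in knockout 5 of the 22 genes. Iigp1 stood at 8.16, 8.23, 8.08, 7.47 and 10.18 in knockouts 1 to 5, against 7.65, 7.72, 7.87, 7.22 and 7.40 in wild types 1 to 5. Knockout 5 was thus 4.59 times the mean of the other knockouts, and knockouts 1 to 3 also lay above all wild types, while knockout 4 lay among them. The difference between genotypes was 0.85 ± 0.46 SE (limma adjusted p = 0.859), and 0.41 ± 0.20 SE without knockout 5 (limma adjusted p = 0.792). In the other Iigp1 probe set knockout 5 was again highest and knockouts 1 to 3 again lay above all wild types, with 9.38 in knockout 5 and between 6.71 and 7.46 in the other knockouts, against 6.56 to 7.24 in wild types. Igtp, a regulatory member of the family, stood at 7.37, 7.37, 7.53, 7.26 and 9.24 in knockouts, against 7.27, 7.27, 7.42, 7.22 and 7.14 in wild types. Leaving aside knockout 5, whose level was 3.62 times that of the other knockouts, the groups overlapped. Irgm1, another regulatory member, stood at 7.57, 7.51, 7.55, 7.47 and 8.42 in knockouts, against 7.50, 7.49, 7.72, 7.53 and 7.37 in wild types. For Irgm2 the values were 7.23, 7.16, 7.35, 7.01 and 8.26 in knockouts, against 7.09, 7.43, 7.28, 7.12 and 7.22 in wild types. In both the other 4 knockouts lay within or close to the wild-type range, with differences of 0.0046 for Irgm1 and −0.044 for Irgm2 without knockout 5.

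The guanylate-binding proteins, large GTPases that coat such vacuoles, had the same single high array, except for Gbp6. In the brightest Gbp6 probe set the other knockouts mostly lay lower than wild types, and the difference did not pass. Gbp2 stood at 7.35, 7.37, 7.26, 7.07 and 8.89 in knockouts, against 7.19, 7.14, 7.35, 6.99 and 7.22 in wild types. Gbp3 stood at 6.55, 6.77, 6.90, 6.44 and 8.58 in knockouts, against 6.68, 6.56, 6.85, 6.37 and 6.61 in wild types. Knockout 5 was 3.09 times the other knockouts in Gbp2 and 3.77 times in Gbp3, and the other 4 overlapped with wild types. Gbp7 stood at 7.74, 7.84, 7.75, 7.60 and 9.08 in knockouts, against 7.67, 7.80, 7.87, 7.66 and 7.81 in wild types. Its second varying probe set, and that of Gbp2, had knockout 5 highest as well, at 8.91 and 8.64. Without knockout 5 the Gbp7 difference was −0.029 in the brightest probe set and 0.10 ± 0.05 SE in the second. Gbp6 stood at 8.08, 8.14, 8.20, 7.78 and 8.72 in knockouts, against 8.18, 8.64, 8.40, 8.52 and 8.27 in wild types. Apart from knockout 5, its knockout values lay below those of wild types with 1 overlap, knockout 3 above wild type 1. The Gbp6 difference was −0.22 ± 0.17 SE (limma adjusted p = 0.937), and −0.35 ± 0.12 SE without knockout 5 (limma adjusted p = 0.608, unadjusted p = 0.0217). In its second probe set the difference was −0.36 ± 0.20 SE (limma adjusted p = 0.862), and there wild type 2 was the highest array. All knockouts but knockout 4 lay above wild type 1 there, which stood at 7.70. Genes of this family are close relatives, and the brightest Gbp2 probe set has the manufacturer's suffix for probes that can match other transcripts.

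**Figure D3:**
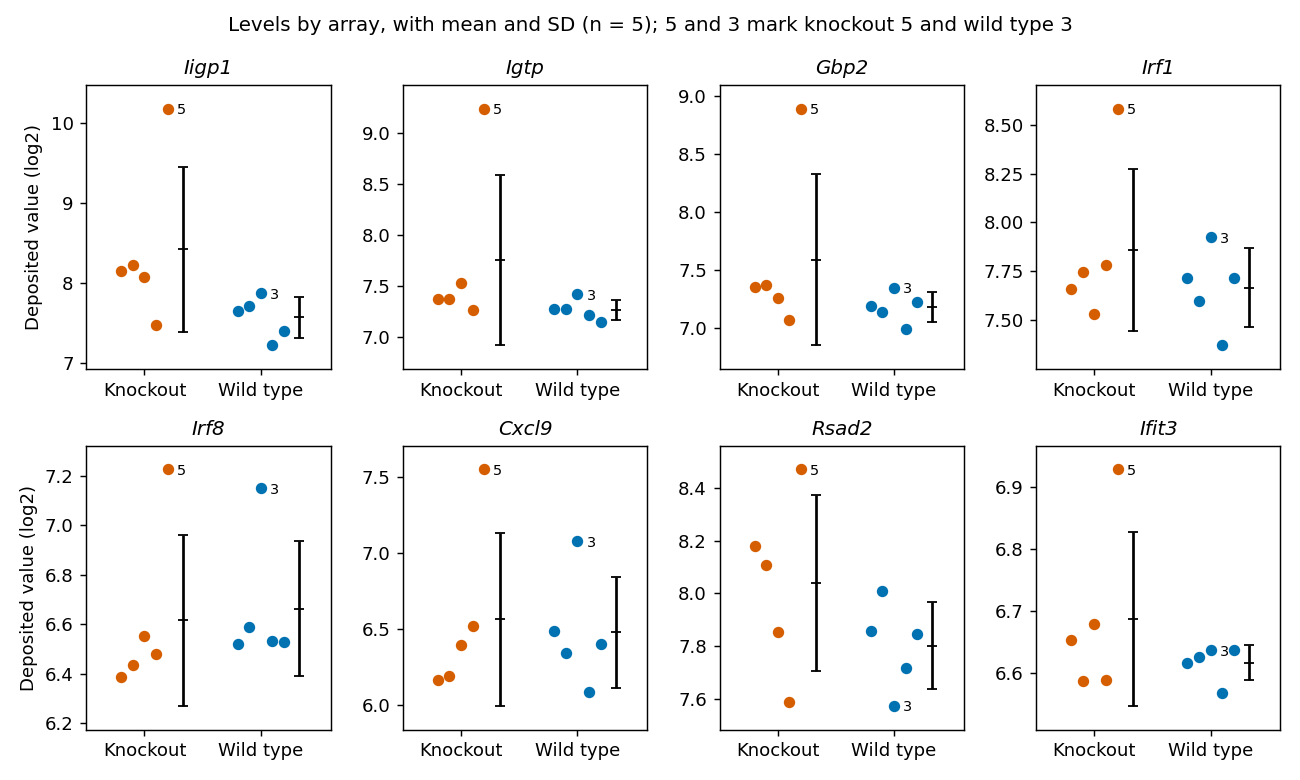
Deposited value (y axis, log2) of 8 interferon-stimulated genes in each knockout (left) and wild-type (right) array, with the mean and SD of 5 arrays beside the points. The points marked 5 and 3 are knockout 5 and wild type 3; knockout 5 is highest in each panel, and wild type 3 approaches it in Irf8.

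The interferon-gamma type factors and the peptide transporter were also highest in knockout 5, and here wild type 3 stood next to it. Irf1, which carries the signal to later target genes, stood at 7.66, 7.74, 7.53, 7.78 and 8.58 in knockouts, against 7.71, 7.60, 7.92, 7.37 and 7.72 in wild types. Irf8, which B cells and myeloid cells use as well, stood at 6.38, 6.43, 6.55, 6.48 and 7.23 in knockouts, against 6.52, 6.59, 7.15, 6.53 and 6.53 in wild types. The high arrays of Irf8 were the 2 that carried lymphocyte genes, and they differed little. In its second probe set knockout 5 stood at 7.42 and wild type 3, the highest array, at 7.44. Without knockout 5 the knockout values of that probe set, 6.05 to 6.23, lay below all wild types, 6.26 to 7.44, an absence of overlap that 2.5% of all probe sets also had (difference −0.40 ± 0.25 SE, limma adjusted p = 0.869). Tap1, which with Tap2 forms the pump that carries peptides to MHC class I, stood at 6.63, 6.77, 6.63, 6.58 and 8.10 in knockouts, against 6.47, 6.57, 7.03, 6.22 and 6.51 in wild types. Tap2 stood at 6.85, 6.82, 6.88, 6.78 and 7.63 in knockouts, against 6.75, 6.96, 7.06, 6.67 and 6.89 in wild types. Cxcl9, a chemokine for T cells, stood at 6.16, 6.19, 6.39, 6.52 and 7.55 in knockouts, against 6.48, 6.34, 7.08, 6.09 and 6.40 in wild types. In these 3 genes knockout 5 was highest and wild type 3 second. The remaining arrays overlapped between genotypes in Tap2 and Cxcl9, while in Tap1 the other 4 knockouts, 6.58 to 6.77, lay above the other 4 wild types, 6.22 to 6.57. Without both arrays the Tap1 difference was 0.21 (limma adjusted p = 0.818), and 4 of the 58 member probe sets had no overlap, of Tap1, Xaf1, Irf8 and the hardly varying Ddx58, where 3.36% of all probe sets had none. The 3 dimmer Tap1 probe sets and the dimmer one of Cxcl9 hardly varied.

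Among the type I members that varied, the excess of knockout 5 was smaller. Rsad2, or viperin, an antiviral enzyme, stood at 8.18, 8.11, 7.85, 7.59 and 8.47 in knockouts, against 7.86, 8.01, 7.57, 7.72 and 7.85 in wild types. Its 3 probe sets had knockout 5 highest each time, and differences of 0.19, 0.22 and 0.24 with limma adjusted p between 0.887 and 0.92. Wild type 3 was the lowest array in the brightest of them. Ifit3 stood at 6.65, 6.59, 6.68, 6.59 and 6.93 in knockouts, against 6.62, 6.62, 6.64, 6.57 and 6.64 in wild types. Bst2, or tetherin, which holds budding virus at the cell surface, stood at 7.18, 7.27, 7.33, 7.17 and 8.05 in knockouts, against 7.20, 7.21, 7.42, 7.10 and 7.26 in wild types. In Ifit3 and Bst2 the other knockouts overlapped with the wild types.

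Xaf1, an interferon-induced gene linked to cell death, was the member with the smallest unadjusted p. It stood at 7.31, 7.46, 7.24, 7.16 and 7.82 in knockouts, against 7.14, 7.12, 7.23, 6.99 and 7.08 in wild types. All knockouts but knockout 4 lay above all wild types, so the groups overlapped through 1 array. The difference was 0.29 ± 0.12 SE (limma adjusted p = 0.737, unadjusted p = 0.0421), and 0.18 ± 0.07 SE without knockout 5 (limma adjusted p = 0.682, unadjusted p = 0.033). A second Xaf1 probe set hardly varied.

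Of the remaining 5 type I members, Parp14 and Usp18 had knockout 5 alone as the high array. Parp14, an ADP-ribosyltransferase, stood at 7.13, 6.87, 6.80, 6.80 and 7.68 in knockouts, against 6.87, 6.96, 7.13, 6.74 and 6.96 in wild types. Usp18, which removes Isg15 from proteins and dampens the type I receptor, stood at 6.15, 6.49, 6.27, 6.28 and 6.81 in knockouts, against 6.26, 6.36, 6.49, 6.20 and 6.40 in wild types. Irf9, the DNA-binding part of the type I complex, stood at 6.58, 6.64, 6.55, 6.51 and 6.93 in knockouts, against 6.50, 6.56, 6.73, 6.49 and 6.49 in wild types. In Parp14 and Usp18 knockout 5 was the one array clear of the rest, while in Irf9 wild type 3 lay above all other arrays but knockout 5. Trim30a, a regulator of innate signalling, stood at 6.85, 6.88, 6.82, 6.91 and 7.39 in knockouts, against 6.64, 6.77, 7.37, 6.82 and 6.98 in wild types, so that knockout 5 and wild type 3 were alike. Its second probe set had the opposite sign, −0.11 ± 0.15 SE against 0.06 ± 0.16 SE (limma adjusted p = 0.977 and 0.998). Ifi35, an interferon-induced leucine-zipper protein, stood at 8.52, 8.87, 8.82, 8.74 and 8.94 in knockouts, against 8.68, 8.76, 8.87, 8.70 and 8.81 in wild types, with no array apart. That probe set can match other transcripts by its suffix, and 2 dimmer ones hardly varied.

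Lymphocyte transcripts were as high in wild type 3 as in knockout 5, while most interferon-gamma type members were not. The mean of the 11 B and T cell markers was 1.40 above the other knockouts in knockout 5 and 1.49 above the other wild types in wild type 3. For the B cell gene Cd79b the excess was 2.87 in knockout 5 and 2.79 in wild type 3, for the T cell gene Cd3d 1.41 and 1.48, and for the chemokine Ccl5 of cytotoxic cells 1.97 and 2.04. In Igtp the excess was 1.86 in knockout 5 and 0.19 in wild type 3, in Iigp1 2.20 and 0.37, in Gbp3 1.92 and 0.29, and in Gbp2 1.63 and 0.21. The gap was narrow in Irf8 (0.76 and 0.61), Trim30a (0.53 and 0.56), Irf9 (0.36 and 0.22) and Ifi35 (0.20 and 0.13). Over the classes, the median excess in wild type 3 was 0.25 for the interferon-gamma type and 0.19 for type I, and in 21 of the 22 genes it was smaller than the excess in knockout 5. Trim30a was the exception.

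**Figure D4:**
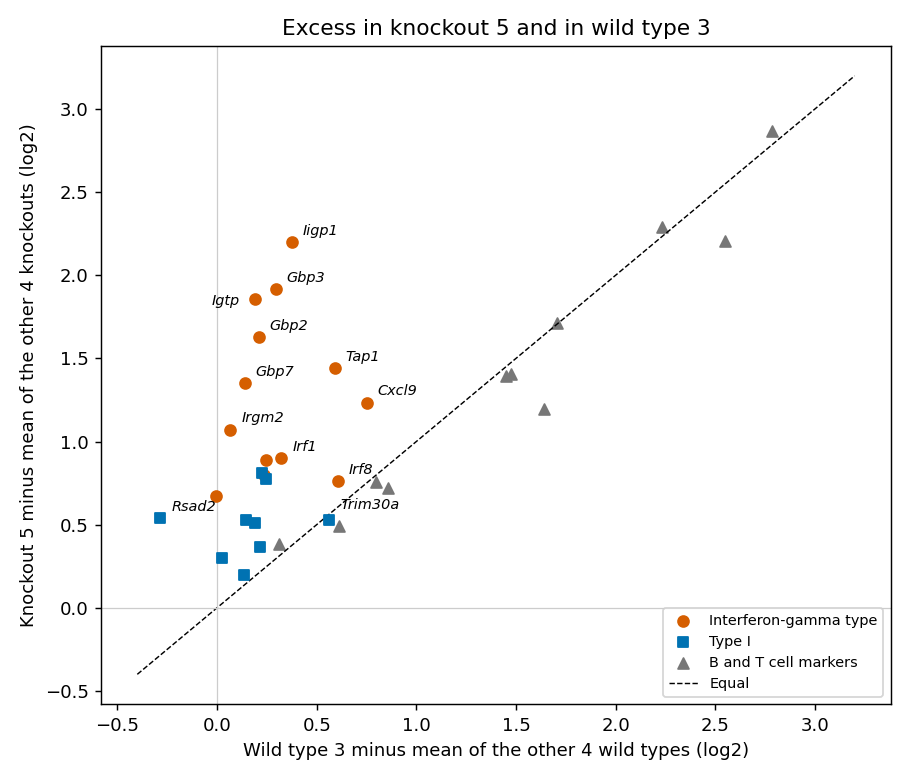
Excess of knockout 5 over the mean of the other 4 knockouts (y axis, log2) against excess of wild type 3 over the mean of the other 4 wild types (x axis, log2), for 13 interferon-gamma type genes, 9 type I genes and 11 B and T cell markers. The markers lie along the dashed line of equal excess, while Iigp1, Gbp3, Igtp and Gbp2 lie far above it.

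Markers of other immune cells moved in both arrays too. Over 3 markers of natural killer and cytotoxic cells that varied, of 10 listed, the mean was 7.03 in knockout 5 and at most 5.92 in the other knockouts, against 7.18 in wild type 3 and at most 5.99 in the other wild types. Over 12 macrophage and monocyte markers, of 14 listed, it ran from 7.76 to 8.31 in knockouts and from 7.62 to 8.51 in wild types. It was highest in knockout 5 and wild type 3, with at most 8.15 in the other knockouts and 8.23 in the other wild types. Of the 12, 8 were highest in knockout 5 among knockouts and 8 in wild type 3 among wild types. Adipocyte markers, 4 of 6 listed, ran from 7.59 to 8.82 in knockouts and from 7.07 to 9.17 in wild types. These were again highest in knockout 5 and wild type 3, with knockout 4 close to knockout 5 at 8.68. The 2 neutrophil markers that varied, of 8 listed, had a mean of 6.71 in knockout 5 and at most 6.35 in the other knockouts, against 7.33 in wild type 3 and at most 6.11 in the other wild types. For plasmacytoid dendritic cells, a known source of type I interferon, 3 of 7 listed markers varied, and their mean was 7.10 in knockout 5 and at most 6.25 in the other knockouts, against 7.17 in wild type 3 and at most 5.86 in the other wild types. Of these 3, Spib lay 2.01 above the other knockouts in knockout 5 and 1.67 above the other wild types in wild type 3. For Ly6d these excesses were 1.17 and 2.20, and for Ccr9 they were only 0.28 and 0.34. Ly6d was also high in knockouts 1 and 4, at 7.20 and 7.47, the knockouts with skin and hair genes. The presence of plasmacytoid dendritic cells was not tested. With the B and T cell markers as a covariate the interferon-gamma type median difference was 0.19 and the type I median 0.08. These markers were high in knockout 5 and wild type 3 alike, so the covariate could hardly move a genotype difference. It does not bear on the excess of knockout 5. The part of these immune cells in that excess was not tested.

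The rest of the pathway showed 1 call. The 10 measured interferon ligand genes, of 19 listed, had no varying probe set. Of 18 probe sets for 9 receptor and kinase genes 1 passed, of Jak1, the kinase shared by both receptor types, and it was higher in knockouts. It stood at 8.35, 8.21, 8.20, 8.15 and 8.14 in knockouts, against 7.51, 7.69, 7.43, 7.57 and 7.61 in wild types, so the groups did not overlap and knockout 5 was the lowest knockout (difference 0.65 ± 0.06 SE, limma adjusted p = 0.00641). Over all 45037 probe sets 0.191% passed and 1.6% had no overlap between genotypes. The other 2 Jak1 probe sets differed by 0.08 ± 0.13 SE and 0.21 ± 0.09 SE and did not pass (limma adjusted p = 0.98 and 0.756). Ifnar2 differed by −0.09 and Ifngr2 by 0.05. Among 26 probe sets of 11 signal transducers and regulators none passed, with Socs3, a feedback inhibitor, at 0.21, Ptpn6 at −0.13 and Ptpn11 at 0.01. Knockout 2 stood at 7.93 in Socs3 and the other knockouts at 6.39 to 6.90, and without knockout 2, left out after seeing the data, the Socs3 difference was −0.061. Ptpn6, a phosphatase of blood cells, was high in knockout 5 (7.49) and wild type 3 (7.35), and its difference was −0.46 without knockout 5. Among 17 probe sets of 10 upstream sensors and adaptors none passed either, and just 3 varied. Tbk1 differed by −0.0117 in its dimmer varying probe set and by −0.11 ± 0.09 SE in the brighter one, and Mavs by 0.00041.

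Other interferon-induced genes outside the list were also mostly highest in knockout 5, with a narrower gap to wild type 3. Of 77 probe sets for 45 such genes none passed the limma threshold, and of the 28 that varied 19 were higher and 9 lower in knockouts, with a median of 0.06. Knockout 5 was highest in 21 of the 28 and wild type 3 in 5, those of Trim34a, Ifi27l2a, Slfn2, Slfn8 and Samd9l. Ifitm2 and Ifi204 lay lower in knockout 5 than the mean of the other knockouts, by −0.20 and −0.14. The median excess over the 28 was 0.54 in knockout 5 and 0.35 in wild type 3. For the 30 varying member probe sets it was 0.81 and 0.22. The smallest p-values were those of Slfn5 (difference 0.15), Ifitm3, an antiviral membrane protein (0.13), and Cd274 (0.55). Cd274, the ligand known as PD-L1 that restrains T cells, stood at 6.77, 6.75, 6.74, 6.38 and 8.95 in knockouts, against 6.59, 6.78, 6.75, 6.32 and 6.40 in wild types, so knockout 5 alone was high. Psmb8, an immunoproteasome subunit, was high in both arrays with lymphocyte genes, at 8.54 in knockout 5 and between 7.08 and 7.34 in the other knockouts, against 7.96 in wild type 3 and between 7.03 and 7.29 in the other wild types. Psmb8 was chosen after its values were seen.

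Of the 6 other genes whose pattern was most like that of the members, Cd274, Rtp4, Ifi47 and Psmb9 stand in the same list of interferon-induced genes. Likeness was the Pearson correlation over the 10 arrays with the mean of the 30 varying member probe sets, after each genotype's mean was subtracted, among 4558 probe sets of other genes with an SD above 0.1. The 6 highest were Gm4951 (0.99), Cd274 (0.98), Rtp4 (0.98), Ifi47 (0.97), Psmb9 (0.97) and Samhd1 (0.97). Knockout 5 was the highest array in 27 of the 30 member probe sets, so this measure favours genes that are high in that array. In each of the 6 genes knockout 5 lay above the other knockouts, by 1.05, 2.29, 0.81, 1.57, 0.92 and 0.53. The measured members lay on 15 chromosomes, with 8 genes on chromosome 5 and 7 on chromosome 11, and none on chromosome 9, which carries Pou2f3.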

How the data were processed

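The authors deposited 1 table of array values, read here as log2 from their range of 4.93 to 13.96, with base, summary and normalization not stated in the labels or the table. The array medians, 6.23 to 6.24, show values already put on a common scale. Of 45101 rows, 64 array controls were left out. Per the platform annotation 34945 probe sets have 1 gene, 932 several and 9160 are unnamed. The limma package 3.58.1 (R 4.3.3; lmFit, then eBayes) tested genotype over all 45037 probe sets, with Benjamini-Hochberg adjustment at 0.05. The fit was tested on simulated data. The members, classes and marker lists were chosen with earlier results of these data known. Values were named for each member with a probe set of SD above 0.01, from the brightest, and for pathway lists by smallest p, up to 3 each. The number of arrays limits the precision. Replicates are called biological in the labels. The replicate numbers showed no uniform pairing of the arrays: deviations of same-numbered arrays correlated between −0.40 and 0.32. Pairing by dissection or array batch was not tested. Alternatives covered normalization, filters, moderation, weights, blocks, covariates, the unit of the test and arrays left out. Figures used Python 3.11.15 and matplotlib 3.10.9.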

Additional observations from a re-analysis of the deposited data

Results flagged for a closer look

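Single arrays stood apart from the other 4 of their genotype in 17 of 46 groups of 5 arrays. The limit was a gap of more than 0.71 of the group's range (Dixon's test). No chance rate is set beside this count, because the members were chosen with earlier results of these data known. A high array also helps a probe set to pass as varying. In 16 of the 17 the array was knockout 5, high each time. Among interferon-gamma type members its levels were 10.18 in Iigp1, 9.24 in Igtp, 8.42 in Irgm1, 8.26 in Irgm2, 8.89 in Gbp2, 8.58 in Gbp3, 9.08 in Gbp7, 8.58 in Irf1, 7.23 in Irf8, 8.10 in Tap1, 7.63 in Tap2 and 7.55 in Cxcl9. Among type I members they were 8.05 in Bst2, 6.93 in Ifit3, 7.39 in Trim30a and 7.06 in its second probe set. The remaining case was wild type 3, at 7.15 in Irf8. All these values come from the same mouse or pair of mice, so they are not independent of each other.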

How the results depend on the processing

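No member passed in any of the 23 alternatives (limma, lowest adjusted p = 0.192, in the hardly varying Ddx58 with the B and T cell covariate). The count over all probe sets, 86, was 43 with quantile normalization, 143 with hardly varying probe sets left out, 57 with the B and T cell covariate, 5 with the brightest probe set per gene, 29 with the mean of probe sets, 31 (without knockout 4) to 57 (without wild type 1) without 1 array and 16 without both arrays with lymphocyte genes. A block for replicate number gave 5; it left every member's difference as it was, and no member passed. Without 1 array the genes higher in knockouts numbered 4 to 9 of 9 type I and 7 to 12 of 13 interferon-gamma type members, the lowest each time without knockout 5. Without 1 array, differences whose sign turned ranged from −0.0064 to 0.21 for Bst2, −0.025 to 0.080 for Ifi35, −0.033 to 0.19 for Parp14, −0.049 to 0.17 for Trim30a, −0.044 to 0.12 for Usp18, −0.20 to 0.075 for Irf8, −0.029 to 0.34 for Gbp7, −0.044 to 0.27 for Irgm2, −0.034 to 0.18 for Tap2 and −0.16 to 0.24 for Cxcl9. Trim30a was −0.025 with the mean of its probe sets, and Socs3 −0.061 without knockout 2, chosen after seeing the data, as was leaving out both arrays with lymphocyte genes. Without both arrays with lymphocyte genes Usp18 was −0.0066, Gbp7 −0.00088, Irgm2 −0.030 and Cxcl9 −0.0112. The cause of these turns was not tested. No detection calls were used here, so which low values lie above background is unknown.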
